A study of Rattus norvegicus with 6 samples.

Results

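The myogenic regulatory factors and their partners were followed in skeletal muscle of newborn rats of lower birth weight (LBW) and average birth weight (ABW). The members were 9 genes chosen by symbol, namely *Pax3*, *Pax7*, *Myf5*, *Myod1*, *Myog*, *Myf6*, *Mef2c*, *Mef2d* and the inhibitor *Id1*. A row of the array table was taken for a member when its RefSeq accession belonged to that symbol in the RefSeq gene table of the rat assembly GRCr8. Of the 9 members, 5 had a row, each of them 1, out of 26300 genes tested, a number that includes unnamed rows, each taken singly. These were *Myod1* (NM_176079), *Myog* (NM_017115), *Myf6* (NM_013172), *Mef2d* (NM_030860) and *Id1* (NM_012797). *Pax3*, *Pax7*, *Myf5* and *Mef2c* had no matched row and were not analysed here.

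RNA came from 3 LBW and 3 ABW pups, all male Wistar rats of 1 day with no treatment, and was hybridized to NimbleGen arrays with a single dye (Cy3), 1 array for each pup. The LBW pups belonged to percentiles 5 to 25 of birth weight. For the ABW pups the sample labels give percentiles 25 to 75, and the methods and the treatment notes of the same samples 50 to 75. Soleus and gastrocnemius muscle were combined. The labels call the 3 pups of a group biological replicates, and the sources used here do not say which litter each came from, so that p-values measure the spread between these pups. The values were log2 signals that the authors had already normalized, so 1 unit is a doubling. A level of 1 gene cannot be set against that of another, because each is read by its own probes. With bulk tissue, fewer cells of a type and less RNA for each cell cannot be told apart.

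Skeletal muscle forms from progenitors that express the paired-box factors *Pax3* and *Pax7*. The basic helix-loop-helix factors *Myf5* and *Myod1* commit these cells to the muscle lineage, and *Myog* and *Myf6* (also known as *Mrf4*) act as they leave the cell cycle, fuse and mature into fibres. Each of these factors binds DNA as a dimer with an E protein at a short sequence called the E-box, together with Mef2 factors, which bind AT-rich sites next to it. *Id1* encodes a protein that has the dimerization domain but cannot bind DNA, so that it takes E proteins away from the myogenic factors, and it is typical of cells that still divide. Around birth, growing muscle holds both maturing fibres and dividing satellite cells, the progenitors that lie along the fibres.

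The sequences just before the start of transcription show where the members themselves carry an E-box. The RefSeq promoter table of GRCr8 had an entry for 4 of the 5 measured members, and the 250 bases before each start were searched. The E-box was searched as CANNTG, whose reverse complement has the same form. *Myog* held 2 matches, *Myf6* and *Id1* 1 each, and *Mef2d* 0. For *Id1* the start used lies inside the gene as RefSeq places it, and so does its match. Among 33469 promoters of the table, 65.5% held at least 1 match in the same window and 30.8% at least 2, so that having at least 1 is common. A MEF2-like form (CTA, any 4 bases, then TAG, which also reads the same on both strands) was in none of the 4 windows and in 3.41% of all promoters. It is only 1 of the forms that Mef2 factors can bind, so its absence does not show that a window lacks a Mef2 site. *Myog* and *Myf6* are shown as the members with an E-box that act in differentiation, and *Mef2d* as the member whose LBW and ABW values did not overlap. The capitals mark the E-box matches, and each sequence ends at the last base before the start. They lie at chr13:48297226-48297475 on the + strand, chr7:44701314-44701563 on the - strand and chr2:175904082-175904331 on the + strand of GRCr8.
*Myog*: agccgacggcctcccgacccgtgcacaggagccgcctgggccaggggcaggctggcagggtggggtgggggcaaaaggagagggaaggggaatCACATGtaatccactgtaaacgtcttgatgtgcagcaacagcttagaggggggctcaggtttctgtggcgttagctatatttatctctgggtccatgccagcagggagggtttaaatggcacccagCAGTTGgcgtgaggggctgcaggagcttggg
*Myf6*: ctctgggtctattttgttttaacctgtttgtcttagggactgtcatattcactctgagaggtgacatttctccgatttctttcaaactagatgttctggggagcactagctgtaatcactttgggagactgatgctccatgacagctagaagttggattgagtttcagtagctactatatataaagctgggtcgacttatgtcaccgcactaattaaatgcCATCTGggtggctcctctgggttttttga
*Mef2d*: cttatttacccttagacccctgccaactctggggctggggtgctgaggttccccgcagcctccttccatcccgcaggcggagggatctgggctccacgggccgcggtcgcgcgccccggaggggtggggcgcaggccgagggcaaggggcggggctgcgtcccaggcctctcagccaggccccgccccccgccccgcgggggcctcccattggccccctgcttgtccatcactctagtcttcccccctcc
Counted from the start of transcription, the matches of *Myog* ran from -157 to -152 (CACATG) and from -31 to -26 (CAGTTG), and that of *Myf6* from -29 to -24 (CATCTG). A match describes these letters and is no evidence that a factor binds there.

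None of the 5 measured members differed between LBW and ABW pups at the threshold of the methods, an unadjusted p under 0.05 together with a fold change of at least 1.5. Over all genes tested, 4.27% passed it by limma. No gene passed a Benjamini-Hochberg adjusted p under 0.05 (0.0%), and the smallest adjusted p among the members was 0.356. At an unadjusted p under 0.05 alone, limma gave 1 member, *Mef2d*, where the share over all genes was 12.4%. The differences were small in size. They lay between -0.11 and 0.29 on the log2 scale, with a median of 0.22 over the 5 members, compared to -0.02 over all genes. For 4 of the 5 members the 95% interval of the difference stayed inside 1.5-fold in both directions, as it did for 17529 of the 26300 genes.

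**Figure D1:**
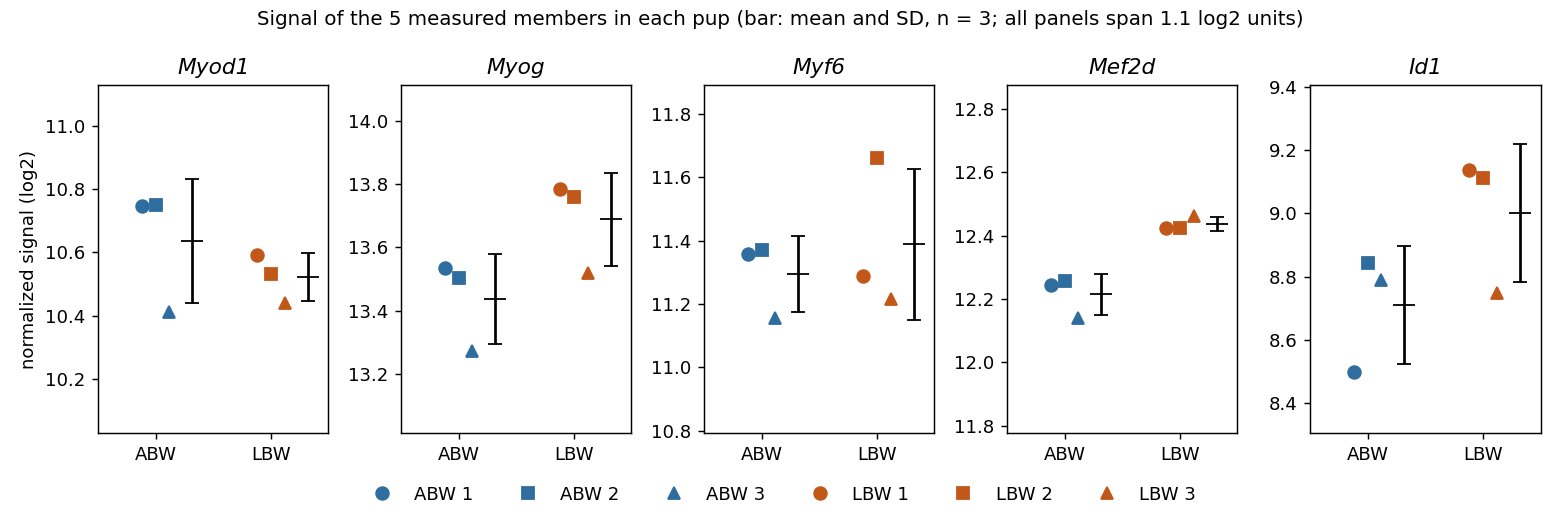
Normalized log2 signal (vertical axis) of the 5 measured members in each of 3 ABW pups (blue) and 3 LBW pups (orange), with the mean and SD of each group as a black bar. *Mef2d* is the member in which all LBW pups (12.42 to 12.46) sit above all ABW pups (12.14 to 12.26), whereas the groups overlap in the other 4.

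*Myod1*, the factor that commits cells to the muscle lineage, was at 10.59, 10.53 and 10.44 in LBW 1, 2 and 3 and at 10.75, 10.75 and 10.41 in ABW 1, 2 and 3. ABW 1 and ABW 2 were above every LBW pup, but ABW 3 was below them all, so that the groups overlapped. The LBW pups were closer to each other (10.52 ± 0.08, SD, n = 3) than the ABW pups (10.64 ± 0.20, SD, n = 3). The difference of LBW minus ABW was -0.11 (SE 0.12, adjusted p = 0.740 by limma), with a 95% interval from -0.40 to 0.17. In terms of fold change this is 0.923, between 0.755 and 1.13. It was the only 1 of the 5 members with a lower mean in LBW pups. An exact permutation test of the 6 pups gave a 2-sided p of 0.4, where 3 pups against 3 cannot give less than 0.1.

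*Myog* encodes myogenin, which is needed for myoblasts to fuse into fibres. Its signal was 13.78, 13.76 and 13.52 in LBW 1, 2 and 3. In ABW 1, 2 and 3 it was 13.53, 13.50 and 13.27. LBW 1 and LBW 2 were above all ABW pups, and LBW 3 lay just below ABW 1. The difference was 0.25 with an SE of 0.12 and a 95% interval from -0.03 to 0.54 (adjusted p = 0.454 by limma), or 1.19-fold. The exact permutation test gave a 2-sided p of 0.2.

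*Myf6*, which is most active in maturing fibres, was at 11.29, 11.66 and 11.22 in LBW 1, 2 and 3 and at 11.36, 11.37 and 11.16 in ABW 1, 2 and 3. Only LBW 2 lay above the ABW pups. The difference of 0.09 (SE 0.14, adjusted p = 0.830 by limma; 95% interval -0.25 to 0.44) became -0.04 when LBW 2 was left out. In the rat genome *Myf6* is the neighbour of *Myf5*, which had no matched row, so that the pair could not be compared.

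*Mef2d*, which encodes a partner that the myogenic factors use to activate muscle genes, was at 12.43, 12.42 and 12.46 in LBW 1, 2 and 3. The ABW pups were at 12.25, 12.26 and 12.14. The groups did not overlap, and the pups nearest to each other differed by 0.17, more than the SD within either group (0.02 in LBW and 0.06 in ABW, n = 3 each). Among all genes the groups did not overlap in 17.4%, and in 7.27% the LBW pups were the higher group. The difference was 0.22 (SE 0.08, adjusted p = 0.356 by limma), with a 95% interval from 0.03 to 0.42 and a fold change of 1.17. The exact permutation test gave a 2-sided p of 0.1, the smallest possible here. Its unadjusted p of 0.0302 by limma was not under 0.05 once any 1 of the 6 pups was left out (0 of 6 fits), with differences from 0.19 (without ABW 3) to 0.24 (without ABW 2). It also missed 0.05 when the dimmest 25% of genes were left out (unadjusted p = 0.0585 by limma).

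*Id1*, the inhibitor, was at 9.14, 9.11 and 8.75 in LBW 1, 2 and 3, while ABW 1, 2 and 3 had 8.50, 8.84 and 8.79. LBW 1 and LBW 2 were above all ABW pups, but LBW 3 was below 2 of them. The difference was 0.29 (SE 0.15, adjusted p = 0.486 by limma), which is a fold change of 1.22. *Id1* had the widest interval of the 5 members, from -0.07 to 0.65, and a 1.5-fold difference lies within it. The exact permutation test gave a 2-sided p of 0.3.

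**Figure D2:**
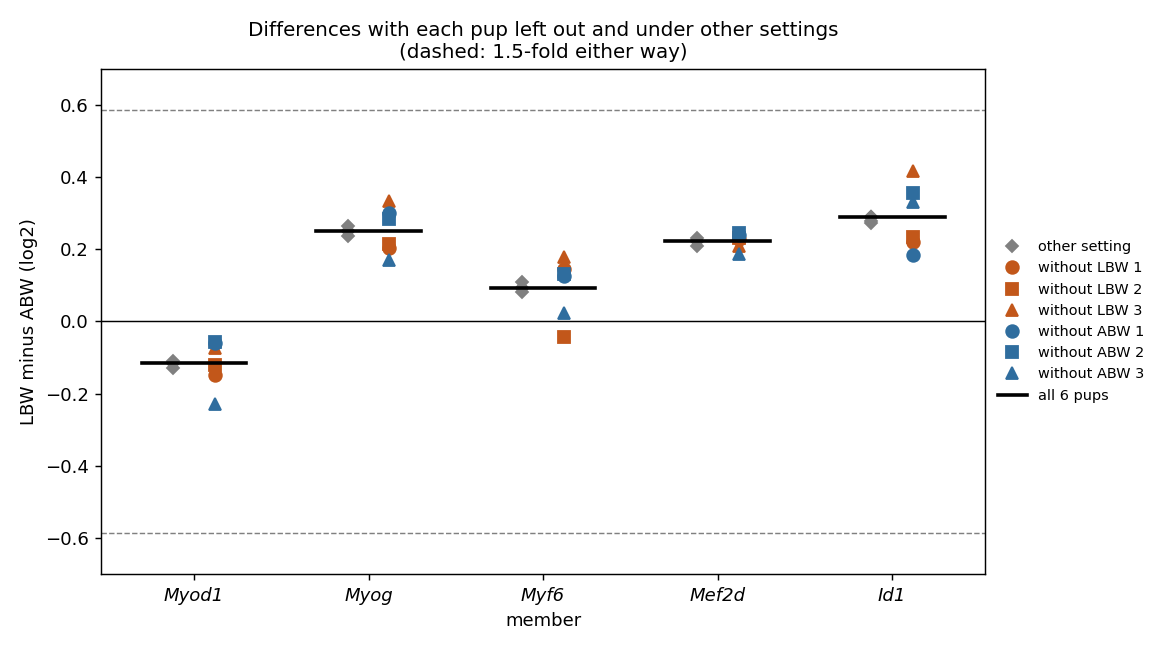
LBW minus ABW on the log2 scale (vertical axis) for each measured member, with all 6 pups (black line), with each pup left out in turn (coloured symbols) and under the other settings of the fit (grey diamonds). All values lie inside the dashed lines at 1.5-fold, and *Myf6* alone crosses 0, when LBW 2 is left out.

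With 1 pup left out, *Myod1* stayed between -0.23 (without ABW 3) and -0.06 (without ABW 2), *Myog* between 0.17 (without ABW 3) and 0.33 (without LBW 3), and *Id1* between 0.18 (without ABW 1) and 0.42 (without LBW 3). Without LBW 3, 2 members had an unadjusted p under 0.05, *Id1* (0.0228 by limma) and *Myog* (0.0304 by limma). With any other pup left out, the number was 0. The share of all genes under that p is not given here for the fit without LBW 3, so whether 2 members is unusual cannot be judged. No member passed the threshold of the methods in any of these fits. The variation between pups of a group was thus of the same order as the differences between groups for each member apart from *Mef2d*.

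The members shared some features of their order over the pups, but not a single order. ABW 3 had the lowest value of all 6 pups in 4 of the 5 members, all but *Id1*, while it had the lowest value in 14.8% of all genes. This was not particular to the members. Relative to the mean of the 6 pups, ABW 3 was also lowest in the list means of satellite cell surface markers (-0.26), myogenic targets (-0.19) and upstream genes (-0.11), which are described below. Every other list was lowest in another pup. LBW 3 was the lowest LBW pup in 4 of the 5, all but *Mef2d*, compared to 38.1% of all genes. After the group means were removed, the deviations of *Myod1* and *Myog* had a Pearson r of 0.892 over the 6 pups, those of *Myod1* and *Mef2d* 0.766 and those of *Myog* and *Myf6* 0.665. The other 7 pairs lay between -0.430 (*Id1* and *Mef2d*) and 0.508 (*Myod1* and *Myf6*), with *Id1* and *Myod1* at 0.040. With the group means left in, r was 0.239 for *Myod1* and *Myog*, -0.174 for *Myod1* and *Mef2d* and 0.647 for *Myog* and *Myf6*. The highest was then 0.780, for *Myog* and *Mef2d*. LBW 3, the lowest LBW pup in the other 4 members, was the highest pup of all in *Mef2d*. These values describe 6 arrays, and the genes share the array and its normalization in each pup.

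The question of progenitor against differentiation genes could be put only in part, since 1 of the 4 progenitor genes (*Id1*) and 3 of the 4 differentiation genes (*Myog*, *Myf6* and *Mef2d*) had a row. *Myod1* was kept apart as the gene of commitment. Each gene was centred on its mean over the 6 pups, and the mean of the 3 differentiation genes was taken from *Id1*. The result was 0.19, 0.05 and -0.10 in LBW 1, 2 and 3 and -0.33, 0.02 and 0.15 in ABW 1, 2 and 3 on the log2 scale. The LBW values thus lay within the range of the ABW values except for LBW 1. The group means differed by 0.10, less than the SD within groups (0.20). The direction turned without ABW 1 (-0.04) and with *Myod1* counted among the progenitor genes (-0.10). No test was run on this value, which rests on a single gene on the progenitor side.

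**Figure D3:**
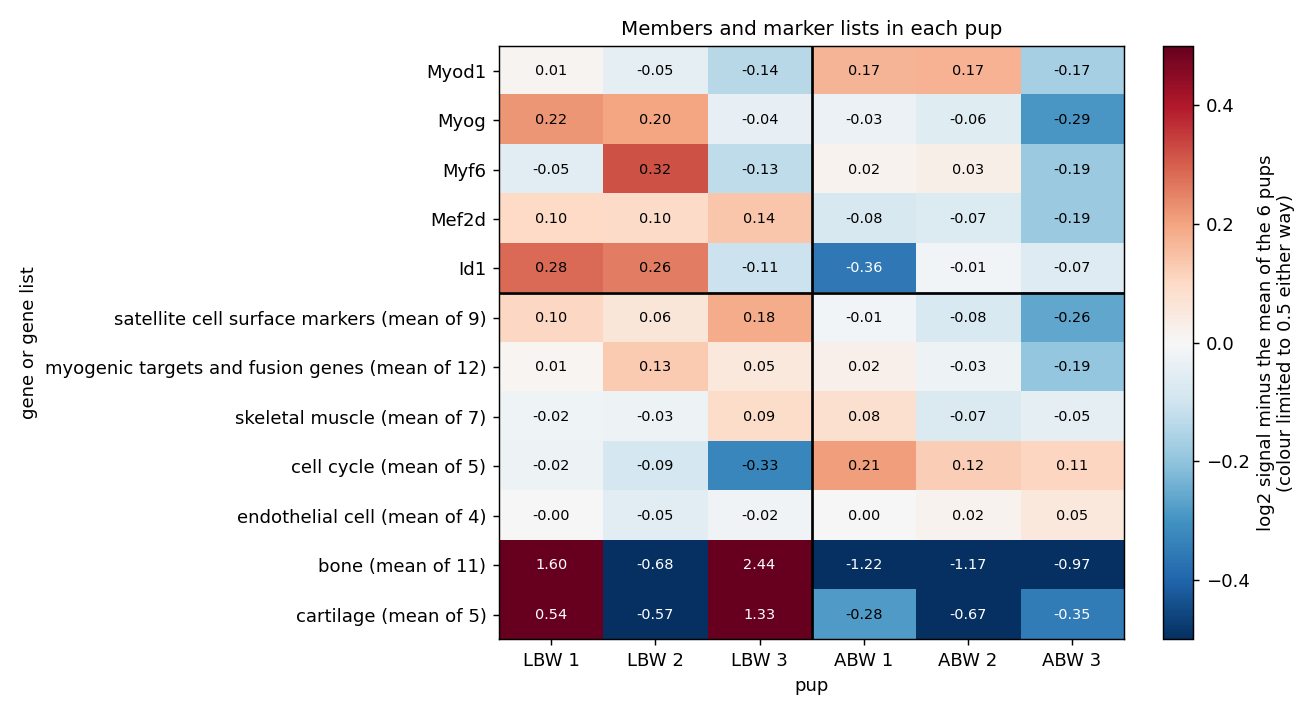
Log2 signal relative to the mean of the 6 pups (colour, which is saturated beyond 0.5 in either direction, and printed number) for the 5 measured members and for the mean of 7 gene lists, with the LBW pups to the left of the vertical line and the ABW pups to the right. The members stay within 0.36 of their mean in every pup, whereas the bone list reaches 1.60 in LBW 1 and 2.44 in LBW 3 and is at -0.68 in LBW 2.

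The tissue label was checked against skeletal muscle markers. Of 12 skeletal muscle markers, 7 had a row, and all 7 lay above the median signal of the table, which is only a rough sign of expression because probes differ in brightness. Their summed signal ran from 17.44 to 17.61 in LBW and from 17.48 to 17.56 in ABW pups on the log2 scale, and 0 of the 7 passed the threshold of the methods. Bone markers differed between the groups, with 6 of the 11 measured higher in LBW at that threshold (4.27% of all genes passed it in either direction) and a summed signal from 15.14 to 16.52 in LBW against 15.13 to 15.33 in ABW pups. The cartilage list ran from 13.55 to 14.59 in LBW and from 13.47 to 13.80 in ABW pups, with 1 of 5 past the threshold. Of the 5 cell cycle markers measured, 4 were lower in LBW and 2 of them, *Ccnb1* (-0.58) and *Cdk1* (-0.38), had an unadjusted p under 0.05 by limma (12.4% of all genes in either direction), with sums from 14.55 to 14.86 in LBW and 14.86 to 14.96 in ABW pups. No value of the table is 0, so that absence of a marker cannot be read from it. *Mef2d* was at 12.43 in LBW 1, where the bone list was at 1.60 relative to its mean over the pups, and at 12.42 in LBW 2, where the list was at -0.68. Whether bone tissue or the share of dividing cells had a part in the values of any member, *Mef2d* included, was not tested.

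Around the members, 6 lists with 80 further genes of the pathway were examined, of which 52 had a row. None of the 52 passed the threshold of the methods, compared to 4.27% of all genes. With 1 pup left out, 1 passed it without LBW 1, 3 without LBW 2 and 4 without ABW 1, and 0 in the other 3 fits. At an unadjusted p under 0.05, limma gave 4 of the 52, all higher in LBW pups. Over all genes, 12.4% were under that p in either direction, and 5.63% were also higher in LBW pups. The median difference over the 52 was 0.07, compared to -0.02 over all genes. For 34 of the 52 the 95% interval stayed inside 1.5-fold, as it did for 17529 of the 26300 genes.

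**Figure D4:**
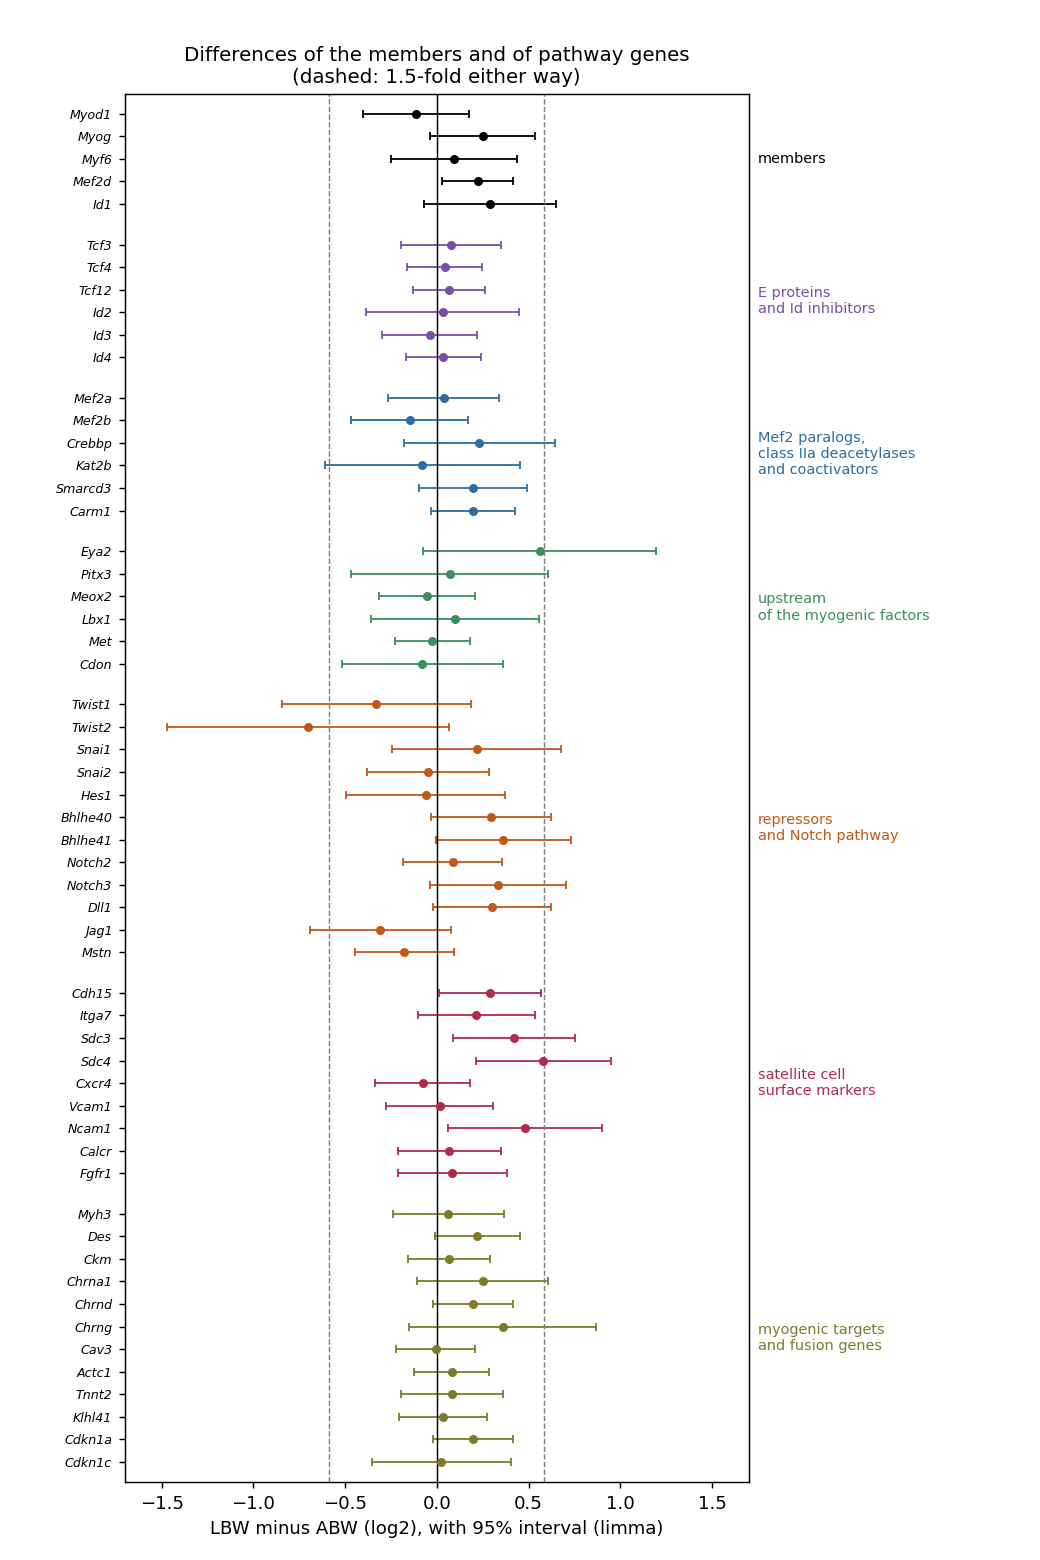
LBW minus ABW on the log2 scale (horizontal axis) with its 95% interval by limma for the 5 measured members and genes of the pathway, coloured by list, with dashed lines at 1.5-fold. The intervals of *Mef2d* and of 4 satellite cell surface markers (*Cdh15*, *Sdc3*, *Sdc4* and *Ncam1*) lie wholly above 0, and *Twist2* has the lowest point, at -0.70.

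The E proteins, with which the myogenic factors pair, and the other Id inhibitors were close to equal in both groups. All 6 had a row, with differences from -0.04 to 0.08, and the 95% interval of each stayed inside 1.5-fold. *Tcf12*, which encodes the E protein HEB, differed by 0.07 (adjusted p = 0.790 by limma), *Tcf3*, which encodes E12 and E47, by 0.08 (adjusted p = 0.819), and *Tcf4* by 0.04 (adjusted p = 0.874). In these 6 the intervals were thus narrow enough to bound the difference in signal. *Id4* was among the dimmest 25% of genes, so that its interval says little about its expression.

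Of the Mef2 paralogs, class IIa deacetylases and coactivators, 6 of 12 had a row, and 4 of them were higher and 2 lower in LBW pups without passing the threshold. None of the listed class IIa deacetylase genes had a matched row, so that the values are of paralogs and coactivators alone. The paralog *Mef2a* had a difference of 0.04 (95% interval -0.27 to 0.34). *Carm1*, an arginine methyltransferase that acts with Mef2 factors, was at 12.00, 11.89 and 12.01 in LBW and at 11.89, 11.66 and 11.75 in ABW 1, 2 and 3. The groups were apart by less than 0.01, and the difference was 0.20 (adjusted p = 0.462 by limma). *Smarcd3*, a subunit of the chromatin remodelling complex that *Myod1* recruits, differed by 0.20 (adjusted p = 0.560 by limma) and the acetyltransferase gene *Crebbp* by 0.23 (adjusted p = 0.627 by limma).

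Genes that act upstream of the myogenic factors had 7 of 14 rows. *Eya2*, a cofactor of the homeodomain proteins that switch on *Myod1* and *Myog*, was at 9.61, 9.06 and 9.45 in LBW and at 9.37, 8.47 and 8.61 in ABW 1, 2 and 3. ABW 1 lay among the LBW pups. The difference was 0.56 (adjusted p = 0.453 by limma; 95% interval -0.08 to 1.20), and *Eya2* was past the threshold of the methods only without LBW 2 or without ABW 1. *Lbx1*, a gene of migrating limb muscle progenitors, differed by 0.10, with an interval on both sides of 0. The brightest of the list, the myoblast surface receptor gene *Cdon*, differed by -0.08.

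Repressors of myogenesis and genes of the Notch pathway, which keeps satellite cells undifferentiated, had 12 of 18 rows, with 6 higher and 6 lower in LBW pups. *Twist2*, which encodes a repressor that sequesters E proteins, was at 8.63, 8.59 and 8.06 in LBW and at 8.44, 9.37 and 9.58 in ABW 1, 2 and 3. ABW 1 again lay with the LBW pups. The difference was -0.70 (SE 0.32, adjusted p = 0.439 by limma), the largest in size among the 52 genes, and it passed the threshold of the methods only without ABW 1. The Notch ligand gene *Dll1* differed by 0.30 (adjusted p = 0.432 by limma), and *Bhlhe41*, which encodes a repressor of *Myod1*, by 0.36 (adjusted p = 0.413 by limma). *Bhlhe41* was among the dimmest 25% of genes. The brightest of the list, *Notch2*, differed by 0.09.

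Among the 6 lists of the pathway, satellite cell surface markers held all 4 genes with an unadjusted p under 0.05, out of 9 measured and 12 listed. All 4 were higher in LBW pups, where 12.4% of all genes were under that p and 5.63% were also higher in LBW. The median difference over the 9 was 0.22. *Sdc4*, which encodes the heparan sulphate proteoglycan syndecan 4, was at 10.90, 10.76 and 11.29 in LBW and at 10.53, 10.36 and 10.32 in ABW 1, 2 and 3. All LBW pups were above all ABW pups, and the nearest differed by 0.23. The difference was 0.58 with an SE of 0.15 (adjusted p = 0.286 by limma). At 1.49-fold it lay just under the fold of the threshold, and its unadjusted p stayed under 0.05 with any 1 pup left out. It was past the threshold of the methods in 3 of these 6 fits, with differences from 0.43 (without LBW 3) to 0.69 (without LBW 2).

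*Sdc3*, which encodes syndecan 3, was at 12.07, 11.79 and 11.85 in LBW and at 11.72, 11.38 and 11.35 in ABW 1, 2 and 3, without overlap. Its difference was 0.42 (SE 0.14, adjusted p = 0.326 by limma). *Ncam1*, whose adhesion protein is also made by nerve, was at 12.99, 12.77 and 13.23 in LBW and at 12.78, 12.53 and 12.24 in ABW 1, 2 and 3, so that LBW 2 and ABW 1 met. Its difference was 0.48 (SE 0.18, adjusted p = 0.359 by limma), and it was past the threshold of the methods without LBW 2 and without ABW 1. *Cdh15*, which encodes M-cadherin and is named here because it was the remaining gene of the 4, differed by 0.29 (SE 0.12, adjusted p = 0.389 by limma) with no overlap. The other 5 genes lay between -0.08 and 0.22. With 1 pup left out, between 1 and 4 genes of the list had an unadjusted p under 0.05, and 1 was left without LBW 1, without ABW 2 or without ABW 3. Syndecans are also made by other tissues, and the bone and cartilage lists above were higher in LBW 1 and LBW 3. *Sdc4* was highest in LBW 3, and the part of those tissues was not tested.

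Targets of the myogenic factors and genes of fusion had 12 of 18 rows, 11 of them higher in LBW pups by at most 0.36, and none with an unadjusted p under 0.05. The fusion genes *Mymk* and *Mymx* had no matched row, so that these values do not cover them. *Des*, which encodes desmin, was at 14.06, 14.22 and 14.06 in LBW and at 13.99, 13.88 and 13.80 in ABW 1, 2 and 3, without overlap, a difference of 0.22 (adjusted p = 0.426 by limma). *Chrnd*, a subunit gene of the acetylcholine receptor, differed by 0.20 (adjusted p = 0.440 by limma) and *Cdkn1a*, whose product p21 holds differentiating myoblasts out of the cell cycle, also by 0.20 (adjusted p = 0.444 by limma), both without overlap. *Actc1*, the cardiac actin gene that fetal muscle expresses and the brightest of the list, differed by 0.08. The LBW pups were higher without overlap in 3 of these 12 genes and in 7.27% of all genes.

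The genes whose pattern over the 6 pups was most like that of a member were sought among 5172 named genes with a signal above the median. Group means were not removed here, so that r includes any difference between LBW and ABW pups. For *Mef2d* these were *Nr4a1* (Pearson r = 0.991), *Fhl2* (0.983) and *Pakap* (0.979), and 98 genes had an r over 0.9. For *Myog* they were *Tspan3* (0.995), *Carhsp1* (0.994) and *Zdhhc3* (0.986), with 135 genes over 0.9. The patterns of *Myod1* (*Il34* and *Cldn5*, 0.984 and 0.982), *Myf6* (*Arl8b*, *Slc35b2* and *P2ry1*, 0.980 to 0.989) and *Id1* (*Slc30a1*, *Ptk2* and *Mcpt8*, 0.962 to 0.976) were shared by fewer, with 16, 56 and 42 genes over 0.9. These values rest on 6 points each, chosen as the highest among 5172 genes that share the same arrays, and they are given as a description.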

How the data were processed

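Muscle RNA from 3 pups of each group was hybridized to NimbleGen single-colour arrays, and the authors deposited normalized log2 values for 26419 rows, each a transcript with 5 probes according to the methods. Normalization was with in-house R scripts and Bioconductor. The submitters' processing notes name RMA without its role or version, and the background correction and the summary of probes are not given in the sources used here. The methods name Student's test among those for all data, without tying it to the arrays, and the array threshold as p under 0.05 with a fold of at least 1.5. Column medians lay between 8.70 and 8.76, and no detection call comes with the values.

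Rows were named through RefSeq transcript accessions (9740 rows, 9621 symbols), and rows of a symbol were averaged, which left 26300 genes. LBW minus ABW was fitted over all of them by lmFit and eBayes of limma (version 3.58.1, R version 4.3.3), with 2-sided p-values, 95% intervals and Benjamini-Hochberg adjustment, and the code was tested on simulated data. The members and lists were chosen with earlier results of these data known. Named genes are all measured members, for each list the 3 with the smallest p and the brightest, and for each member the 3 most alike, of which some are not reported here. Fibroblast (0 of 5 at an unadjusted p under 0.05), endothelial (1 of 4) and Schwann cell (1 of 6) markers were also read. Alternatives were a replicate block, leaving out each pup, quantile normalization, median centring, a filter on dim genes, an intensity trend, a robust prior, the methods' test, each row alone, a fold of at least 2 and *Myod1* placed with the progenitor or the differentiation genes. Arrays carry no count depth, and their number limits the precision. Protein sequences were not used here.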

Additional observations from a re-analysis of the deposited data

How the results depend on the processing

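The number of members past the threshold of the methods was 0 under every alternative run. Over all genes, the count of 1124 was 584 by the methods' test, which uses the variance of each gene alone, and 335 at a fold of at least 2, while it lay between 798 and 1546 with 1 pup left out. The number with an adjusted p under 0.05 lay between 0 and 125 when 1 pup was left out, and 125 were reached only without LBW 2. The cause was not tested. *Myf6* changed direction without LBW 2, and its difference there was -0.0429, the lowest of a range up to 0.18 when 1 pup was left out. The cause was not tested. The other 4 measured members kept their direction in every fit. *Mef2d* had an unadjusted p under 0.05 with quantile normalization, centring, an intensity trend, a robust prior, the methods' test and each row alone. *Myog* had one with an intensity trend (0.0373 by limma). Between 2 and 4 satellite cell surface markers had an unadjusted p under 0.05 under the alternatives that kept all pups. The difference of *Id1* and the differentiation genes, 0.10, turned to -0.10 with *Myod1* among the progenitor genes and to -0.04 without ABW 1. It was 0.18 with *Myod1* among the differentiation genes, 0.07 after quantile normalization and up to 0.20 with 1 pup left out. Each of these moved it by less than its SD within groups (0.20), the first only just, and it could not be formed without *Id1*.

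There was little sign that the replicate numbers pair the pups, since the deviations of same-numbered pups correlated at 0.0873, 0.104 and 0.0552. Such values do not settle whether same-numbered pups share a litter or a batch, which was not tested. With the replicate block, 1230 genes and 0 members passed the threshold, *Myog* had an unadjusted p of 0.0407 and *Mef2d* of 0.0701 by limma, and 2 satellite cell surface markers were under 0.05.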
